A study of Mus musculus with 30 samples.

Results

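The 10 genes described here carry the BMP and TGF-beta signal of endothelial cells, which line blood vessels, and were followed in the brain endothelium of mice of 5 ages. They are the ligand gene Bmp6, the receptor genes Acvrl1, Eng, Bmpr2 and Tgfbr2, the signal transducer gene Smad1, the inhibitory Smad6 and Smad7, and the target genes Id1 and Id3. They were chosen by name, as genes of this pathway, from 48795 gene identifiers. All 10 passed the filter on low counts, as did 16844 identifiers in all. The libraries held RNA of primary brain endothelial cells from untreated mice labelled WT, with no transgene or other allele named, at 2, 6, 12, 18 and 24 months. Each age had 3 male and 3 female libraries, 30 in all, which the study counts as biological replicates. Whether a library held cells of 1 mouse or of a pool, the strain of the mice and how the cells were isolated are not stated in the labels. The p-values below therefore measure the spread between these libraries. The study asked how expression changes with age after correction for sex.

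BMP and TGF-beta ligands bind pairs of type I and type II receptor kinases, which phosphorylate receptor-activated Smad proteins that enter the nucleus with Smad4 and switch on target genes. Endothelial cells have an arm of their own, in which circulating BMP9 and BMP10 act through the type I receptor ALK1 (gene Acvrl1), the co-receptor endoglin (Eng) and the type II receptor BMPR2, signal through Smad1 and its relatives, and raise the Id genes. Smad6 and Smad7 are induced by the pathway and block it, Smad6 mainly in the BMP arm and Smad7 in both. Inherited loss of ACVRL1 or ENG leads to hereditary haemorrhagic telangiectasia, a disease of fragile vessels and arteriovenous malformations, in the brain among other organs.

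The start regions of a pair of the members are shown because these genes rose with age and each holds a DNA word that Smad complexes are known to bind. RefSeq promoter windows (assembly GRCm38.p6, 250 bases before to 50 after the start) were at hand for 7 of the 10 members and were searched on both strands for the palindromes GTCTAGAC, known as a Smad-binding element, and GGCGCC, a word found in BMP-responsive elements. Neither word overlaps the other. GTCTAGAC was found in Smad6 only, starting 4 bases before the start site, and in 0.213% of the 32851 windows of the table. GGCGCC was found in Bmpr2 only, 105 bases before the start site of its RefSeq window, and in 11.9% of the windows. That start lies downstream of the gene start in the GRCm38 annotation used for gene positions, so that the word lies 774 bases inside Bmpr2 as annotated there. The 254 bases of Smad6 lie at chr9:64022056-64022309 on the minus strand and the 30 bases of Bmpr2 at chr1:59764162-59764191 on the plus strand. The words are in capitals and each sequence runs 5′ to 3′.
Smad6: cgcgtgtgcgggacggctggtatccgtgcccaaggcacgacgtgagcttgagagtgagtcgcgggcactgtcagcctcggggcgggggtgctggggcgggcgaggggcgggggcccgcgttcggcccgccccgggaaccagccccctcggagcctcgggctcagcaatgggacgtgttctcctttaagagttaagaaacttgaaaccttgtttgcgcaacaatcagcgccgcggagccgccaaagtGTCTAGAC
Bmpr2: ctccggcggccgGGCGCCgctgcctgcccc
A match describes these letters and is not evidence of binding.

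Gene counts per library ranged from 24140980 to 50464366, and levels are given in CPM, counts per 1000000 scaled gene counts of a library. The 10 endothelial markers summed to between 19933 and 26696 CPM in every library, with none below 1 CPM on average. Their tests of age are given below with those of other cell types. Reads outside annotated genes had a median share of 4.89% at 2 months and 9.88% at 18 months. Genes with more than 3935 bases of exon, the median of the genes tested, took a share of counts with medians of 53.7% at 2 months, 49.7% at 6 months and 58.0% at 18 months. It was 44.3 to 47.6% in the 3 female 6-month libraries and 51.8 to 56.1% in the male ones. Reads were paired-end in 24 libraries and single-end, from another instrument, in 6. Which libraries these were is not stated in the labels, so that instrument entered no fit. Whether instrument coincided with age is therefore not known here, and the age differences cannot be separated from it.

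The receptor gene Bmpr2 and both inhibitory Smad genes rose with age, and none of the 10 fell at the threshold. The slope on age, with sex as a covariate, is given as the fitted log2 change over the 22 months from 2 to 24. In edgeR's quasi-likelihood test, with Benjamini-Hochberg adjustment over all 16844 genes and a threshold of 0.05, 3 of the 10 rose, beside 5.72% of all genes rising. None fell, beside 5.22% of all genes falling. Negative slopes at an unadjusted p under 0.05 were found for 2 (Smad1 and Id3), beside 2075 of the 16844 genes. DESeq2 called 1 falling slope, that of Id3. The joint test of the 5 ages, which takes no shape for granted, called 5 of the 10, Bmpr2, Smad6, Smad7, Id1 and Id3, beside 29.3% of all genes. A departure from a straight line passed for 4 of the 10, Bmpr2, Tgfbr2, Id1 and Id3, beside 17.7% of all genes. The median slope of the 10 was -0.06 log2, against 0.03 log2 over all genes tested. With the share of reads outside genes as a further covariate no slope of the 10 passed, and 402 genes passed in all in place of 1843. The slopes were 0.29 log2 for Bmpr2, 0.50 for Smad6 and 0.57 for Smad7 (edgeR adjusted p = 0.314, 0.193 and 0.250). Bmpr2 still passed the joint test (adjusted p = 0.0237). That share ran from 3.82 to 6.61% at 2 months and from 7.99 to 13.1% at 18 months, so that the covariate itself moved with age. In these bulk samples fewer cells of a type and less RNA per cell cannot be told apart.

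**Figure D1:**
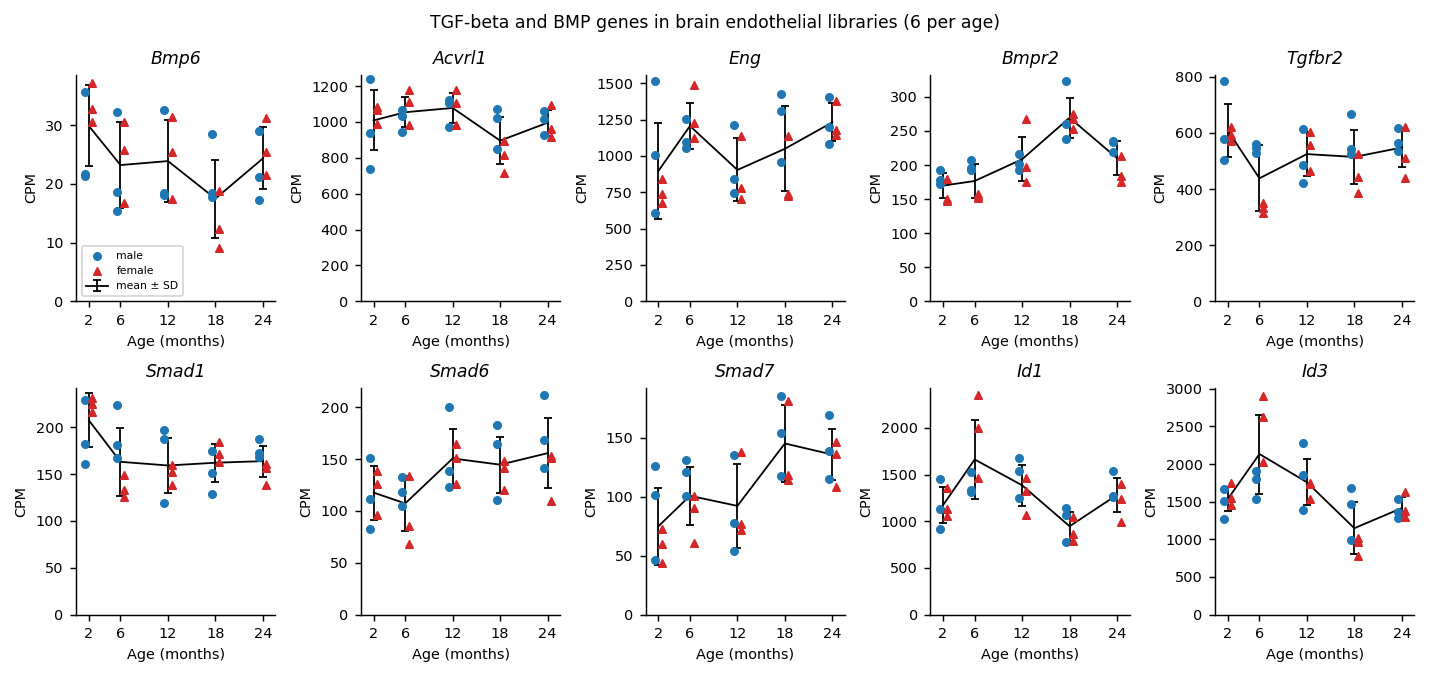
Each panel plots 1 gene in CPM (linear axis from 0) against age in months, with blue circles for the 3 male and red triangles for the 3 female libraries of each age and the black line for the mean ± SD of 6 libraries. All 6 values of Bmpr2 at 18 months lie above those at 2 months, Smad7 is higher at 18 and 24 months on average, and Id1 and Id3 are highest at 6 months and lowest at 18 months on average.

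Scaled for exon length, the target genes were the most abundant of the 10 and the ligand the least. Id1 had 3628 ± 719 TPM (transcripts per 1000000, SD, n = 30) and Id3 2907 ± 639.7 TPM. Among the receptors Eng had 867 ± 231 TPM, Acvrl1 778 ± 85.2 TPM and Tgfbr2 214 ± 47.0 TPM. They were followed by Smad6 at 141 ± 38.1, Smad1 at 90.5 ± 17.1, Smad7 at 81.5 ± 32.0, Bmpr2 at 38.4 ± 9.94 and Bmp6 at 20.1 ± 6.13 TPM. The order of 2 pairs of neighbours differed with age. Smad1 exceeded Smad7 in 21 of the 30 libraries, among them 6 of 6 at 2 months but 3 of 6 at 18 months and 2 of 6 at 24 months. Smad1 and Smad7 had 108 and 54.4 TPM at 2 months on average, and 88.4 and 102 TPM at 24 months. Eng exceeded Acvrl1 in 21 of 30, with 2 of 6 at 2 and at 12 months, 5 of 6 at 18 months and 6 of 6 at 6 and at 24 months. The other neighbours kept their order in 27 to 30 of the 30 libraries. Bmpr2 has the longest exons of the 10, at 17983 bases, and averaged 207 CPM.

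Bmp6 (chromosome 13, 38345107 to 38500302, GRCm38) encodes a secreted BMP, known from the liver, where endothelial cells make it to set iron uptake. It was the only ligand among the members and was lower at 18 months. Bmp6 ran from 21.3 to 37.2 CPM with a median of 31.7 at 2 months, from 15.3 to 32.3 CPM with a median of 22.2 at 6 months and from 17.5 to 32.6 CPM with a median of 21.97 at 12 months. At the later ages it lay between 9.01 and 28.5 CPM at 18 months (median 18.2) and between 17.3 and 31.3 CPM at 24 months (median 23.6). At 18 months 5 of the 6 libraries lay below the lowest 2-month library, and at 24 months 2 did. Its level at 18 months differed from that at 2 months by -0.77 ± 0.24 log2 (SE, edgeR adjusted p = 0.0243). Neither the slope (-0.35 ± 0.22 log2, adjusted p = 0.317) nor the joint test of the ages (adjusted p = 0.134) passed. The 18-month call ended when replicates 1 and 5 of 2 months and replicates 5 and 6 of 18 months were left out one at a time (adjusted p 0.0548 to 0.0766), where replicates 1 to 3 are male and 4 to 6 female. It also ended with library totals (-0.69 log2, adjusted p = 0.0546), the share of counts in longer genes as a covariate (-0.59 log2, adjusted p = 0.0948) and the share of reads outside genes as a covariate (-0.75 log2, adjusted p = 0.510). The difference was -0.27 log2 in males alone (adjusted p = 0.767) and -1.32 log2 in females alone (adjusted p = 0.00370). Over all genes 275 passed at 18 months in males alone and 3367 in females alone. The interaction of sex and age as a factor did not pass for Bmp6 (adjusted p = 0.486). A stretch of 224 exon bases (5.74%) overlaps the other-strand gene Txndc5, whose reads cannot be separated there without strand.

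Bmp6 varied between libraries together with fibroblast transcripts. Over the 30 libraries, after the mean of each age and sex was taken off, log2 Bmp6 followed the summed level of 8 fibroblast markers with Pearson's r of 0.94 and Spearman's rho of 0.94 (permutation p = 1e-05 for each, the smallest that 100000 resamples can give, adjusted p = 0.00150 over 150 relations of 10 genes and 15 marker lists). Without the 2 libraries farthest from the median of the marker sum r was 0.93. The genes most like Bmp6 among 9060 genes with a mean of at least 10 CPM were Spp1 (r = 0.94), Lum (r = 0.92) and Dcn (r = 0.92), all matrix genes, of which Dcn and Lum are on the fibroblast list. Only 1 other of the 150 relations passed, that of Bmp6 with the oligodendrocyte precursor list (r = 0.70, rho = 0.69, adjusted p = 0.00600 and 0.0225), which shares Pdgfra with the fibroblast list. The fibroblast sum itself had medians of 478 CPM at 2 months, 457 CPM, 351 CPM, 375 CPM and 501 CPM at the later ages, and ranged from 291 to 749 CPM, 237 to 818 CPM, 213 to 588 CPM, 223 to 680.1 CPM and 188 to 667 CPM at the 5 ages in order. None of its 8 markers rose or fell by slope in edgeR, 3 passed the joint test, and Dpt was below 1 CPM. The part of fibroblast RNA in the Bmp6 difference was not tested.

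**Figure D2:**
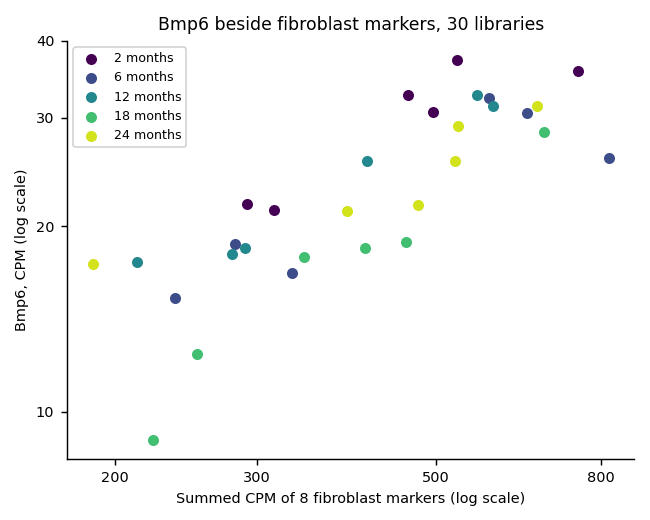
Each point is 1 of the 30 libraries, coloured by age, with the summed CPM of 8 fibroblast markers on the horizontal axis and Bmp6 in CPM on the vertical axis, both on log scales. Bmp6 rises along with the fibroblast sum, and the lowest Bmp6 values are those of 18 months.

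The other ligands on the pathway list gave no slope that passed. Of 18 listed genes 12 were tested, 0 rose and 0 fell by slope (edgeR; 1 rose and 0 fell at an unadjusted p under 0.05, and DESeq2 called 0), and 1 differed among the ages. That gene was Tgfb3, which had means of 4.39 ± 2.59, 2.13 ± 0.910 and 5.55 ± 1.79 CPM at 2, 6 and 24 months (SD, n = 6, joint adjusted p = 0.0245). Among ligands that did not pass, Tgfb2 averaged 169 CPM over all libraries and Tgfb1 44.9 CPM. Gdf2, which encodes the ALK1 ligand BMP9, had no read in any library, which allows up to 0.124 CPM in the shallowest one by counting error alone. Bmp10 averaged 0.00779 CPM. Both BMP9 and BMP10 are known as circulating proteins made outside the brain.

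Of the 4 receptor genes Bmpr2 alone passed the slope and joint tests in edgeR. Bmpr2 (chromosome 1, 59763400 to 59879014) encodes the type II receptor that pairs with ALK1 and is mutated in hereditary pulmonary arterial hypertension. Bmpr2 ran from 147 to 193 CPM with a median of 175 at 2 months, from 151 to 207 CPM with a median of 175 at 6 months and from 174 to 268 CPM with a median of 199 at 12 months. At the later ages it lay between 239 and 324 CPM at 18 months (median 264) and between 176 and 235 CPM at 24 months (median 216). All 6 libraries of 18 months lay above the highest of 2 months, a separation on one side shown by 8.47% of all genes tested, while at 24 months 4 did. Means at 2, 18 and 24 months were 169.7 ± 18.0, 269 ± 29.4 and 210.0 ± 25.0 CPM (SD, n = 6). Its slope was 0.50 ± 0.12 log2 (SE, edgeR adjusted p = 0.00606) and its joint test gave an adjusted p of 3.87e-05. Its departure from a straight line had an adjusted p of 0.00446. The difference from 2 months was 0.67 ± 0.10 log2 at 18 months (adjusted p = 1.57e-05) and 0.31 ± 0.10 log2 at 24 months (adjusted p = 0.0449).

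The slope of Bmpr2 passed in each of the 30 fits that left out 1 library (edgeR adjusted p 0.00280 to 0.0139). Without the 18-month libraries it was 0.31 log2 (adjusted p = 0.0606). The 24-month difference ended in 13 of the 30 fits, those without replicates 1, 2, 4 and 5 of 2 months, replicate 1 of 6 months, replicate 4 of 12 months, replicates 4 and 6 of 18 months and replicates 1, 2, 3, 4 and 5 of 24 months (adjusted p 0.0501 to 0.102). It also ended with RLE scaling, without a filter, without the sex covariate and without the 6-month libraries (adjusted p 0.0501 to 0.0963). With the share of longer genes as a covariate the slope was 0.37 log2 (adjusted p = 0.0233). With the share of reads outside genes the joint test (adjusted p = 0.0237) and the 18-month difference (0.70 log2, adjusted p = 0.0234) passed. The slope and the 24-month difference did not (adjusted p = 0.314 and 0.0915). The genes most like Bmpr2 within ages and sexes were Zfp809 (r = 0.78), Polr1a (r = 0.71) and Creb3l2 (r = 0.69).

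Acvrl1 (chromosome 15, 101128522 to 101145336), the ALK1 receptor gene, passed no test of age over all 30 libraries. Levels of Acvrl1 lay between 738 and 1238 CPM at 2 months (median 1027), between 947 and 1181 CPM at 6 months (median 1051) and between 971 and 1181 CPM at 12 months (median 1105). They ran from 716 to 1073 CPM with a median of 872 at 18 months and from 917 to 1094 CPM with a median of 988 at 24 months. The ages overlapped throughout, with 1 library of 18 months below the lowest of 2 months and none of any age above the highest. Its slope was -0.11 ± 0.10 log2 (edgeR adjusted p = 0.496), with an adjusted p of 0.225 in the joint test. The joint test passed in the female libraries alone (adjusted p = 0.0180) and not in the male ones (adjusted p = 0.970). Over all genes it passed for 6310 in the female libraries alone and for 254 in the male ones. Its closest genes were Mapk11 (r = 0.83), Def6 (r = 0.80) and Esam (r = 0.76), the last of which encodes an endothelial adhesion molecule on the endothelial marker list. With the sum of that list Acvrl1 had r = 0.75 and rho = 0.66 over the 30 libraries (permutation, adjusted p = 0.0800 and 0.102), and r = 0.58 without the 2 farthest.

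Eng (chromosome 2, 32646595 to 32682669), which encodes endoglin, passed no slope or joint test in edgeR over all 30 libraries. Eng lay between 605 and 1513 CPM at 2 months (median 791) and between 1055 and 1492 CPM at 6 months (median 1173). The 12-month libraries ran from 706 to 1216 CPM with a median of 811, and the oldest mice gave values between 725 and 1424 CPM at 18 months (median 1049) and between 1084 and 1408 CPM at 24 months (median 1188). All 6 libraries of 6 and of 24 months lay above the 2-month mean of 896 CPM, but a 2-month male library at 1513 CPM was the highest of the 30. The slope was 0.26 ± 0.17 log2 (edgeR adjusted p = 0.363) and the joint test did not pass (adjusted p = 0.0881). The joint test passed when replicate 3 of 2 months and replicate 6 of 12 months were left out one at a time (adjusted p down to 0.00914), and over all libraries by limma-voom and DESeq2 (adjusted p = 0.0487 and 0.0493). Genes most like Eng were Scaf1 (r = 0.91), Arhgap23 (r = 0.91) and Cdh5 (r = 0.90), the last of which encodes VE-cadherin.

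Tgfbr2 (chromosome 9, 116084293 to 116175360), the type II receptor gene of TGF-beta itself, was lower at 6 months. Levels of Tgfbr2 lay between 504 and 785 CPM at 2 months (median 586), between 314 and 560.2 CPM at 6 months (median 439.6) and between 423 and 613 CPM at 12 months (median 522). They ran from 387 to 666 CPM with a median of 525 at 18 months and from 438 to 623 CPM with a median of 550.1 at 24 months. At 6 months 3 of the 6 libraries lay below the lowest of 2 months, all of them female. The female values were 349.6, 314 and 331 CPM and the male values 546, 529.6 and 560.2 CPM. The sexes did not overlap, as was also so for Bmpr2, Smad1, Smad7 and Id3 at that age. The share of all genes that separate in this way was not counted, so that this is not shown to be a trait of the members. The 6-month difference was -0.50 ± 0.13 log2 (edgeR adjusted p = 0.0201), and without the 3 female libraries it was -0.22 log2 (adjusted p = 0.673). The call also ended without replicates 3 and 6 of 2 months and replicates 4, 5 and 6 of 6 months, one at a time (adjusted p 0.0626 to 0.0868). The 3 female libraries had the low longer-gene shares given above, and Tgfbr2 has 8187 exon bases. With that share as a covariate the difference was -0.29 log2 (adjusted p = 0.160). The slope was -0.02 ± 0.13 log2 (adjusted p = 0.952), the joint test did not pass (adjusted p = 0.0541) and the departure from a line passed (adjusted p = 0.0457). The joint test passed with RLE scaling (adjusted p = 0.0473), limma-voom (adjusted p = 0.0471), DESeq2 (adjusted p = 0.0204), the longer-gene share as a covariate (adjusted p = 0.0190) and in 7 of the 30 fits without 1 library. Its closest genes, Ephb4 (r = 0.89), Pecam1 (r = 0.89) and Kremen1 (r = 0.88), include the endothelial receptor gene Ephb4 and the adhesion molecule gene Pecam1.

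Among the 9 other receptor genes listed, 7 were tested, 1 rose, 0 fell (edgeR; 0 at an unadjusted p under 0.05 and 0 by DESeq2) and 2 differed among the ages. The BMP type I receptor gene Bmpr1a rose by 0.77 ± 0.26 log2 (adjusted p = 0.0472), from a mean of 12.1 ± 3.70 CPM in the youngest to 17.2 ± 2.99 CPM in the oldest mice, and lost its call in 19 of the 30 fits without 1 library (adjusted p up to 0.0863). The TGF-beta type I receptor gene Tgfbr1, partner of Tgfbr2, had a slope of -0.07 ± 0.32 log2 (adjusted p = 0.916) but differed among the ages (adjusted p = 0.00136). It had means of 55.8 ± 15.8, 23.5 ± 13.9, 40.9 ± 8.92, 56.1 ± 13.4 and 33.6 ± 3.11 CPM at the 5 ages in order, so that Tgfbr1 and Tgfbr2 both had their lowest mean at 6 months. At 6 months Tgfbr1, too, was lower in the female libraries (9.05, 14.5 and 9.90 CPM) than in the male ones (33.4, 32.4 and 41.4 CPM), and its interaction of sex with age as a factor passed (adjusted p = 0.00309). Of 6 co-receptor and receptor modulator genes 5 were tested, 1 rose, 0 fell (0 at an unadjusted p under 0.05 and 0 by DESeq2) and 3 differed among the ages. Lrg1, a secreted glycoprotein that binds endoglin, rose by 2.08 ± 0.57 log2 (adjusted p = 0.0167), from 14.3 ± 17.2 CPM to 41.6 ± 51.3 CPM, with 1 library of 18 months at 225 CPM, and passed in all 30 fits without 1 library (adjusted p up to 0.0419). Betaglycan (Tgfbr3) had means of 89.8 ± 26.6 CPM at 6 and 173 ± 30.2 CPM at 18 months (joint adjusted p = 0.0102). Neogenin (Neo1) averaged 24.8 ± 8.87 CPM and 46.0 ± 8.63 CPM at the same ages (joint adjusted p = 0.0121).

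Smad1 (chromosome 8, 79338395 to 79399518), the transducer that BMP receptors phosphorylate, was at its highest median at 2 months. Smad1 ran from 161 to 231 CPM with a median of 220.2 at 2 months, from 125 to 224 CPM with a median of 158 at 6 months and from 119 to 197 CPM with a median of 156 at 12 months. At the later ages it lay between 128 and 184 CPM at 18 months (median 167) and between 138 and 187 CPM at 24 months (median 164). Between 2 and 4 of the 6 libraries of each later age lay below the lowest 2-month library, and none above the highest. The differences from 2 months were -0.36, -0.39, -0.36 and -0.35 log2 at 6, 12, 18 and 24 months, and none passed (edgeR adjusted p 0.0530 to 0.103). Neither the slope (-0.26 ± 0.12 log2, adjusted p = 0.170) nor the joint test (adjusted p = 0.0714) did. The slope passed without the 3 female 6-month libraries (-0.35 log2, adjusted p = 0.0336), without the 6-month libraries (-0.35 log2, adjusted p = 0.0499) and with the longer-gene share as a covariate (-0.36 log2, adjusted p = 0.0313). In these fits the joint test passed too (adjusted p = 0.0486, 0.0347 and 0.0185). It also passed by DESeq2 (adjusted p = 0.0333), in females alone (adjusted p = 0.000136) and in 2 of the 30 fits without 1 library. It did not pass by limma-voom (adjusted p = 0.0839) or in males alone (adjusted p = 0.732). Over all genes the joint test passed for 6310 in females alone and for 254 in males alone. Prkar1a, Atp2c1 and Fkbp4 were closest to it (r = 0.83, 0.82 and 0.82).

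Of the 5 other Smad genes, all tested, 1 rose, 1 fell and 3 differed among the ages. Smad9, the Smad8 gene and a relative of Smad1, rose by 1.30 ± 0.29 log2 (edgeR adjusted p = 0.00417). Its mean went from 1.33 ± 0.241 CPM in the youngest to 3.95 ± 0.869 CPM in the oldest mice. The lowest 24-month library (2.84 CPM) lay above the highest 2-month one (1.59 CPM), a separation on one side shown by 6.5% of all genes tested. Smad2, of the TGF-beta arm, fell with a slope of -0.34 ± 0.10 log2 (adjusted p = 0.0201), from 58.3 ± 8.04 CPM to 46.2 ± 4.27 CPM. Without replicate 4 of 2 months its adjusted p was 0.0513. Smad5 had means of 37.5 ± 12.1 CPM at 6 and 68.6 ± 20.9 CPM at 18 months (joint adjusted p = 0.0150). Smad4, the shared partner, had a slope of -0.19 ± 0.10 log2 (adjusted p = 0.232) at a mean of 207 CPM.

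Both inhibitory Smad genes rose. Smad7 (chromosome 18, 75367529 to 75395935), which blocks TGF-beta and BMP receptors, had the steepest slope of the 10. Smad7 ran from 43.3 to 126 CPM with a median of 66.3 at 2 months, from 60.7 to 131 CPM with a median of 101 at 6 months and from 53.9 to 138 CPM with a median of 77.3 at 12 months. At the later ages it lay between 114 and 185 CPM at 18 months (median 137) and between 109 and 169 CPM at 24 months (median 138). At 24 months 4 of the 6 libraries and at 18 months 3 of 6 lay above the highest 2-month library, and each library of both ages lay above the 2-month mean. Means at 2, 18 and 24 months were 74.9 ± 32.6, 145 ± 32.8 and 136 ± 21.9 CPM (SD, n = 6). The slope was 0.90 ± 0.21 log2 (SE, edgeR adjusted p = 0.00582), and the joint test gave an adjusted p of 0.00810. The difference from 2 months was 0.98 ± 0.23 log2 at 18 months (adjusted p = 0.00362) and 0.88 ± 0.23 log2 at 24 months (adjusted p = 0.0145). The slope passed in all 30 fits without 1 library (adjusted p 0.00333 to 0.0144) and without the 18-month libraries (0.75 log2, adjusted p = 0.0494), while the joint test did not pass without those libraries (adjusted p = 0.0657). Prkce (r = 0.88), Caskin2 (r = 0.88) and Dusp7 (r = 0.86) varied most like it.

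Smad6 (chromosome 9, 63953076 to 64022059), the inhibitor of the BMP arm, whose start region is shown above, rose by a smaller amount. Smad6 lay between 82.8 and 152 CPM at 2 months (median 119) and between 67.8 and 134 CPM at 6 months (median 112). The 12-month libraries ran from 123 to 200.3 CPM with a median of 145, and the oldest mice gave values between 111 and 183 CPM at 18 months (median 144) and between 110.0 and 212 CPM at 24 months (median 152). The ages overlapped, with 3 libraries of 12 months, 2 of 18 months and 3 of 24 months above the highest 2-month library. Means at 2 and 24 months were 118 ± 26.1 and 156 ± 33.5 CPM (SD, n = 6). The slope was 0.48 ± 0.15 log2 (edgeR adjusted p = 0.0386) and the joint test gave an adjusted p of 0.0409, but no single age passed against 2 months (adjusted p 0.156 to 0.640). The slope call ended in 12 of the 30 fits, those without replicates 1, 2 and 5 of 2 months, replicates 2, 3 and 5 of 6 months, replicates 1, 2 and 5 of 18 months and replicates 3, 4 and 5 of 24 months (adjusted p 0.0510 to 0.0935). The joint call ended in 17, those without replicates 1, 2 and 5 of 2 months, replicates 2, 3, 4 and 5 of 6 months, replicates 3, 4 and 6 of 12 months, replicates 2, 4 and 5 of 18 months and replicates 1, 3, 4 and 5 of 24 months (adjusted p 0.0508 to 0.0911). With the longer-gene share as a covariate neither the slope (0.41 log2, adjusted p = 0.0951) nor the joint test (adjusted p = 0.106) passed. The slope on log2 age (adjusted p = 0.0521) and the joint test without a filter on low counts (adjusted p = 0.0575) did not pass either, nor did the slope without any 1 of the ages except 12 months, or without the 3 female 6-month libraries (adjusted p 0.0641 to 0.135). Genes closest to Smad6 were Slc6a6 (r = 0.77), Gaa (r = 0.74) and Nfic (r = 0.73), of which the taurine transporter gene Slc6a6 also rose with age (0.77 log2, adjusted p = 5.85e-05).

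Some pericyte and smooth muscle markers also rose with age, by slope 4 of 8 and 2 of 8 (edgeR), beside 5.72% of all genes, and 0 fell. Medians of the pericyte sum were 616, 646, 585, 491 and 800 CPM at 2, 6, 12, 18 and 24 months, so that the lowest was at 18 months. Those of the smooth muscle sum were 130, 81.2, 112, 190 and 240 CPM. The summed pericyte level ranged from 432 to 729 CPM, 404 to 753 CPM, 426 to 656 CPM, 370.4 to 725 CPM and 459 to 1182 CPM at 2, 6, 12, 18 and 24 months. The smooth muscle sum ranged from 94.2 to 372 CPM, 55.2 to 142 CPM, 77.6 to 291 CPM, 69.4 to 248 CPM and 117 to 465 CPM at the same ages. The smooth muscle markers Cnn1 and Myocd were below 1 CPM. The neuron markers summed to 30.3 to 45.2 CPM, 62.0 to 133 CPM, 76.7 to 159.7 CPM, 54.4 to 134 CPM and 109.5 to 152 CPM at the 5 ages in order, mostly from Stmn2, the 1 of 8 that rose (1.45 log2, adjusted p = 0.00127). Of the other neuron markers 5 were below 1 CPM, Rbfox3, Syt1, Tubb3, Slc17a7 and Nefl. Astrocyte markers rose in 1 of 8 (Fgfr3) and fell in 2 of 8 (Aldoc and Slc1a3). Choroid plexus markers fell in 4 of 8, with medians of 2995 CPM at 2 months and 1236 CPM at 24 months. Of the 10 endothelial markers 0 rose and 1 fell by slope, Cldn5 (-0.59 log2, adjusted p = 0.00463). The joint test passed for 6 of them, beside 29.3% of all genes. Within ages and sexes, r with the pericyte sum was 0.05 for Bmpr2, -0.14 for Smad7 and 0.0045 for Smad6 (n = 30, rho 0.05, -0.11 and 0.07, permutation p = 0.761, 0.486 and 0.983). Smad7 had r = -0.45 and rho = -0.49 with the smooth muscle sum (permutation, adjusted p = 0.280 and 0.184). The part of these cells in the age differences was not tested.

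The other inhibitors of the pathway moved in both directions. Of 22 listed 20 were tested, 1 rose, 2 fell and 6 differed among the ages. Bambi, a decoy receptor without a kinase, fell by 1.34 ± 0.18 on the log2 scale (edgeR adjusted p = 1.11e-05), with means of 61.6 ± 8.79, 45.3 ± 8.46, 35.0 ± 7.66, 20.7 ± 4.78 and 26.6 ± 7.39 CPM from the youngest to the oldest age. Every 24-month library (at most 40.6 CPM) lay below every 2-month library (at least 51.0 CPM), a separation on one side shown by 6.5% of all genes at that age. Noggin (Nog), a secreted BMP antagonist, rose by 1.15 ± 0.33 log2 (adjusted p = 0.0216), from 0.755 to 2.17 CPM at 2 months to between 4.21 and 6.93 CPM in the oldest mice, and lost its call without replicate 2 or 6 of 2 months (adjusted p 0.0519 and 0.0524). The corepressor gene Tgif1 had a slope of -0.49 ± 0.14 log2 (adjusted p = 0.0184). The remaining genes differed among the ages without a slope that passed. They were the corepressor genes Skil (58.4 ± 28.7 CPM at 6 and 149 ± 35.7 CPM at 18 months, joint adjusted p = 0.00118) and Ski (48.8 ± 6.93 CPM and 89.3 ± 56.4 CPM, adjusted p = 0.0121), and the BMP modulator gene Twsg1 (139 ± 10.8 CPM at 2 and 92.3 ± 32.3 CPM at 6 months, adjusted p = 0.0313).

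The target genes Id1 and Id3 had their highest means at 6 months and their lowest at 18 months. Their proteins, inhibitors of DNA binding, bind helix-loop-helix transcription factors and keep them off DNA. In Id1 (chromosome 2, 152736251 to 152737410) levels ran from 919 to 1451 CPM with a median of 1131 at 2 months, from 1308 to 2350.1 CPM with a median of 1492 at 6 months and from 1063 to 1679 CPM with a median of 1391 at 12 months. At the later ages it lay between 782 and 1141 CPM at 18 months (median 951) and between 987 and 1539 CPM at 24 months (median 1263). At 6 months 4 of the 6 libraries lay above the highest 2-month library, and at 18 months 3 lay below the lowest. Means at 2, 6 and 18 months were 1172 ± 196, 1661 ± 420.0 and 946 ± 156 CPM (SD, n = 6). The 6-month difference was 0.50 ± 0.15 log2 (edgeR adjusted p = 0.0312), while that at 18 months did not pass (-0.31 ± 0.15 log2, adjusted p = 0.142). Its joint test passed (adjusted p = 0.00212), as did the departure from a line (adjusted p = 0.00484), and its slope did not (-0.25 ± 0.18 log2, adjusted p = 0.376).

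Id3 (chromosome 4, 136143497 to 136145755) was also highest at 6 months and lowest at 18 months on average. Levels of Id3 lay between 1276 and 1744 CPM at 2 months (median 1532), between 1534 and 2906 CPM at 6 months (median 1967) and between 1387 and 2282 CPM at 12 months (median 1743). They ran from 774 to 1679 CPM with a median of 1001 at 18 months and from 1278 to 1632 CPM with a median of 1373 at 24 months. At 6 months 5 libraries lay above the highest 2-month one, and at 18 months 4 lay below the lowest. Its differences from 2 months were 0.48 ± 0.16 log2 at 6 months (edgeR adjusted p = 0.0605) and -0.42 ± 0.16 log2 at 18 months (adjusted p = 0.0650), and neither passed. The joint test did (adjusted p = 0.00160), with a departure from a line at adjusted p = 0.0112 and a slope of -0.49 ± 0.18 log2 (adjusted p = 0.0821). Id1 and Id3 also varied together within ages and sexes (r = 0.72, rho = 0.76, n = 30, permutation, adjusted p = 0.0151 and 0.00742). Tnfrsf12a (r = 0.85), Znrd1 (r = 0.80) and Dnaja1 (r = 0.80) were most like Id1, and Dynll1 (r = 0.89), Eif1 (r = 0.86) and Brk1 (r = 0.86) most like Id3.

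Other properties of the libraries moved with Id1 and Id3. They have the shortest exons of the 10, 1160 and 1791 bases, and the share of counts in longer genes was lowest at 6 and highest at 18 months. With that share as a covariate the joint adjusted p was 0.364 for Id1 and 0.379 for Id3 (edgeR). With the share of reads outside genes as a covariate it was 0.0688 and 0.0936, and without the 18-month libraries 0.0789 for Id1. Without the 3 female 6-month libraries both joint tests passed (adjusted p 0.0138 and 0.0141), while the 6-month difference of Id1 was 0.18 log2 (adjusted p = 0.782). It also ended without replicates 1, 4 and 5 of 2 months and replicates 4 and 5 of 6 months, one at a time (adjusted p 0.0628 to 0.0940). The summed erythroid markers, mainly haemoglobin genes, ranged from 326 to 788 CPM at 2 months (median 452 CPM), 604 to 2076 CPM at 6 months (median 1022 CPM) and 619 to 943 CPM at 12 months (median 726 CPM). They ranged from 156 to 821 CPM at 18 months (median 267 CPM) and 407 to 1111 CPM at 24 months (median 613 CPM), so that their median, too, was highest at 6 and lowest at 18 months. Of 5 matched erythroid markers 0 rose and 0 fell by slope, 3 passed the joint test, and Slc4a1, which encodes a red cell anion exchanger, was below 1 CPM. The part of these properties in the Id1 and Id3 differences was not tested beyond the values given.

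Of 12 other target genes listed 11 were tested, 2 rose, 0 fell (2 at an unadjusted p under 0.05, and 1 by DESeq2) and 1 differed among the ages. Atoh8, a transcription factor gene that BMP9 induces in endothelial cells, rose by 0.76 ± 0.13 log2 (edgeR adjusted p = 0.000374), from 24.9 ± 3.83 CPM at 2 months through 29.7 ± 6.56 CPM, 37.0 ± 5.01 CPM and 40.1 ± 9.49 CPM to 42.3 ± 5.58 CPM at 24 months, and its joint test passed (adjusted p = 0.00131). All 6 libraries of 24 months (at least 35.6 CPM) lay above those of 2 months (at most 30.9 CPM), a separation on one side shown by 6.5% of all genes tested. Tgfbi, a matrix protein gene named for its induction by TGF-beta, rose by 0.93 ± 0.31 log2 (adjusted p = 0.0463) and lost its call in 18 of the 30 fits without 1 library (adjusted p up to 0.144). The relatives of Id1 and Id3 had slopes of -0.41 ± 0.16 log2 for Id2 (adjusted p = 0.0957) and -0.79 ± 0.28 log2 for Id4 (adjusted p = 0.0652).

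TGF-beta storage and activation had 3 genes that rose of 12, all tested, and 0 that fell (edgeR; 0 at an unadjusted p under 0.05 and 0 by DESeq2), with 4 that differed among the ages. Ltbp4, which encodes a protein that binds latent TGF-beta in the matrix, rose from 554 ± 135 CPM to 756 ± 129.8 and 713 ± 56.2 CPM in the 18- and 24-month mice (0.47 ± 0.14 log2, adjusted p = 0.0265). Its call ended without replicate 2 of 2 months or replicate 4 of 24 months (adjusted p 0.0503 and 0.0586). Ltbp1, of the same family, rose by 1.14 ± 0.31 log2 (adjusted p = 0.0160). Lrrc32, which holds latent TGF-beta at the cell surface, rose by 0.55 ± 0.18 log2 (adjusted p = 0.0496) and lost its call in 20 of 30 fits (adjusted p up to 0.114). Furin, a protease that cuts TGF-beta precursors, differed among the ages (joint adjusted p = 0.0141) with a slope of 0.55 ± 0.21 log2 (adjusted p = 0.0952). Over all 84 other pathway genes 72 were tested, 9 rose and 3 fell by slope, and 20 differed among the ages. Of all genes tested 5.72% rose, 5.22% fell and 29.3% differed among the ages, shares that also stand beside the counts of each list above. At an unadjusted p under 0.05, 2273 of the 16844 genes rose and 2075 fell by slope. The median slope of the 72 was 0.14 log2. With the share of reads outside genes as a covariate only Bambi and Atoh8 still passed, of the 12 that rose or fell.

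**Figure D3:**
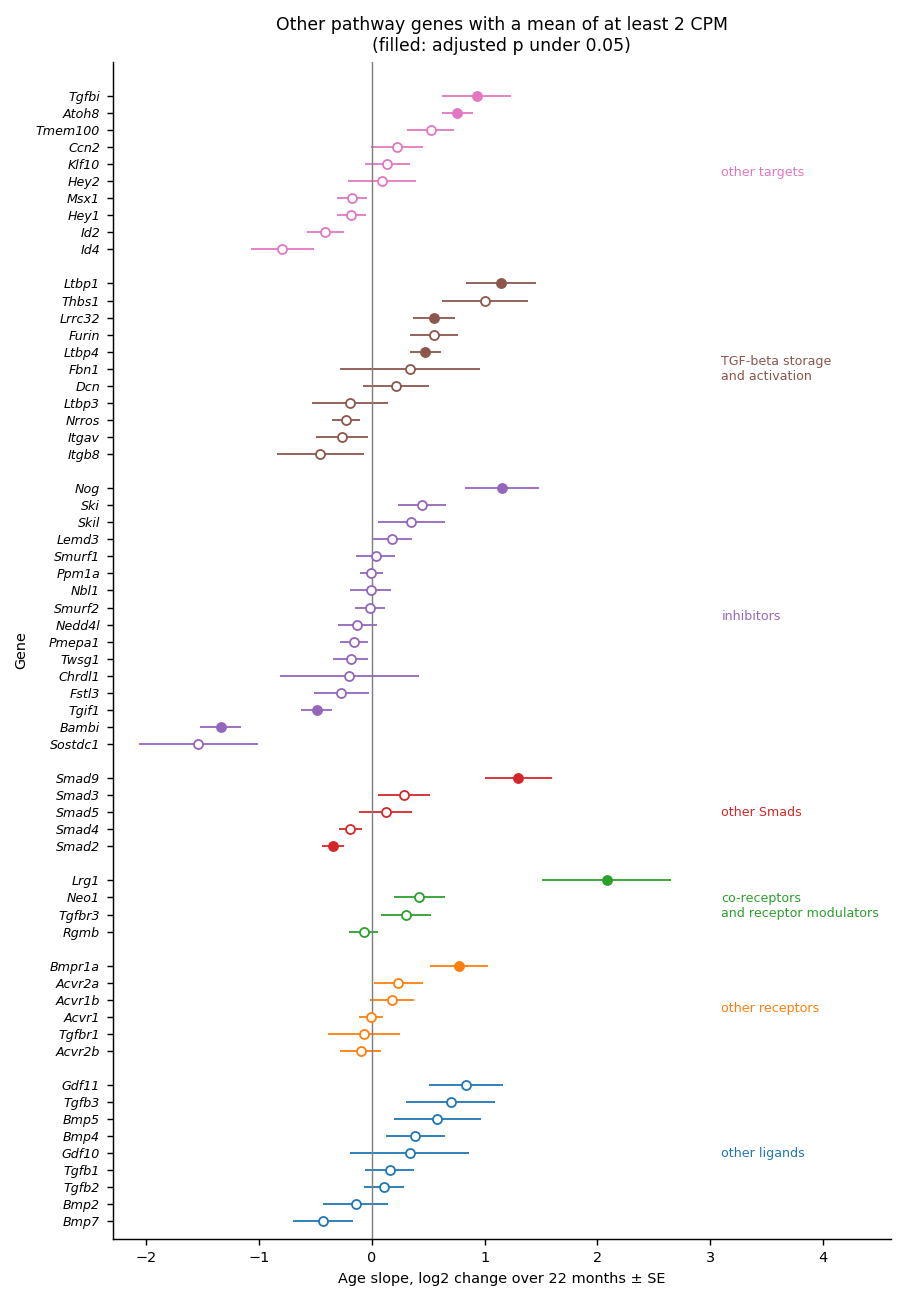
Points are the age slopes (fitted log2 change over 22 months, horizontal axis) of the other pathway genes with a mean of at least 2 CPM, with bars for ± SE, grouped and coloured by list, and filled where the edgeR adjusted p was under 0.05. The 9 filled points to the right of 0 and the 3 to the left, Bambi, Smad2 and Tgif1, are the genes that passed.

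Set against 2 months age by age, between 0 and 3 of the members passed. At 6 months 2 of the 10 passed, Tgfbr2 lower and Id1 higher, beside 4.69% of all genes lower and 4.07% higher (edgeR). At 12 months 0 passed, beside 2.94% of all genes, with 1 by DESeq2 and 0 by limma-voom. At an unadjusted p under 0.05 were 3 of the 10, beside 2767 of the 16844 genes tested. At 18 months 3 passed, Bmpr2 and Smad7 higher and Bmp6 lower, beside 10.1% of all genes higher and 8.7% lower, and at 24 months 2 passed, Bmpr2 and Smad7 higher, beside 4.86% of all genes higher. These comparisons share the 2-month libraries. Without those libraries only the slope of Id3 passed among the 10 (-0.89 log2, adjusted p = 0.0268).

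**Figure D4:**
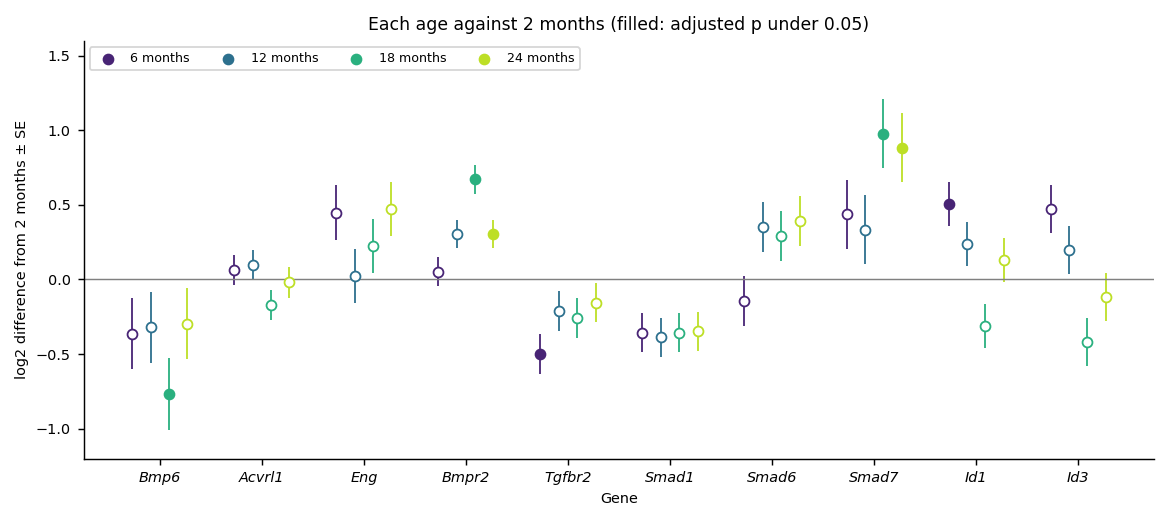
For each of the 10 genes the 4 points, coloured by age, show the fitted log2 difference from 2 months with bars for ± SE (vertical axis), filled where the edgeR adjusted p was under 0.05. Bmpr2 and Smad7 are filled at 18 and 24 months, Bmp6 at 18 months, and Tgfbr2 and Id1 at 6 months.

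No member passed a test of sex or of sex with age. With age as a factor 0 of the 10 passed the test of sex, beside 0.101% of all genes (edgeR), and 0 by DESeq2. At an unadjusted p under 0.05 were 2 of the 10, beside 1316 of the 16844 genes tested. Those 2 were Bmpr2 and Tgfbr2, with female minus male differences of -0.16 ± 0.06 and -0.23 ± 0.09 log2 (adjusted p = 0.509 and 0.5005). An interaction of sex with age in months passed for 0 of the 10, beside 0.0% of all genes, and for 0 by DESeq2. It had an unadjusted p under 0.05 for 0 of the 10, beside 916 of the 16844 genes tested. With age as a factor, a test chosen after the data were seen, the interaction passed for 0 of the 10, beside 6.26% of all genes. It had an unadjusted p under 0.05 for 3 of the 10 (Tgfbr2, Smad1 and Id3), beside 3564 of the 16844 genes tested. Nearest to the threshold was Id3 (adjusted p = 0.0543). Its female libraries gave 2627, 2906 and 2029.6 CPM at 6 months and 965, 1010.4 and 774 CPM at 18 months, against 1905, 1795 and 1534 CPM and 1679, 1464 and 991 CPM in males. The sexes did not overlap at 6 months, the age at which the female libraries had the low shares of longer genes. They did not overlap at that age for Tgfbr2, Bmpr2, Smad1 and Smad7 either, where the female values were the lower ones. Bmpr2 ran from 151 to 157 CPM in females and 193 to 207 CPM in males, and Smad1 from 125 to 149 and 167 to 224 CPM. Smad7 ran from 60.7 to 100.4 and 100.9 to 131 CPM. How many of all genes separate in this way was not counted. For 6 months against 2, 3754 genes passed in females alone and 81 in males alone.

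In pairs, within ages and sexes, most pairs of the 10 genes did not pass a test of varying together. Of 45 pairs 24 had r above 0, with a median of 0.084 and a range from -0.65 to 0.81 (n = 30 libraries), and 4 passed in both Pearson's and Spearman's test (permutation, adjusted over 45 pairs). Eng varied with Tgfbr2 (r = 0.81, rho = 0.77, adjusted p = 0.0151 and 0.00742) and with Smad7 (r = 0.79, rho = 0.69, adjusted p = 0.0157 and 0.0251). Bmp6 and Smad1 varied in opposite directions (r = -0.65, rho = -0.67, adjusted p = 0.0207 and 0.0251). Without the 2 libraries farthest from the median of the first gene, r was 0.73, 0.70 and -0.56, and 0.64 for Id1 and Id3. All genes of a library share its depth and scaling. With the fibroblast sum Bmp6 had r = 0.94, and Smad1 had r = -0.61 and rho = -0.61 (permutation, adjusted p = 0.0819 and 0.104). The part of fibroblast RNA in the relation of Bmp6 and Smad1 was not tested.

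**Figure D5:**
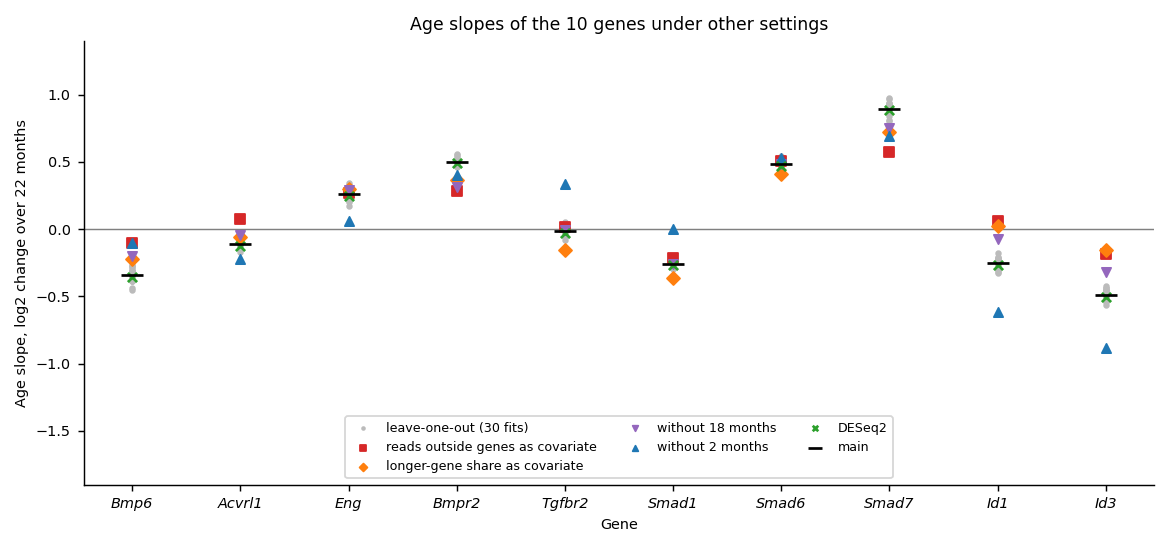
Black dashes are the age slopes of the 10 genes (fitted log2 change over 22 months, vertical axis), grey dots the 30 fits without 1 library each, and coloured symbols the fits with a further covariate, without the 2-month or 18-month libraries, and by DESeq2. The symbols of Bmpr2, Smad6 and Smad7 lie above 0 throughout, as do those of Eng, whose slope did not pass. Those of Acvrl1, Id1 and Tgfbr2 lie on both sides of 0.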

How the data were processed

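RNA of primary brain endothelial cells was sequenced in 30 libraries, made with an unstranded full-length cDNA kit (SMART-Seq v4, then Nextera XT) without molecular identifiers, per the labels' protocols. The authors deposited whole-number read counts per gene, 1 file a library, from alignment to GRCm38 (mm10) with STAR 2.5.2b, with FastQC 0.11.4, MultiQC and HTSeq also named, per the submitters' processing notes. The sources used here do not give the annotation release. The count column that ignores strand was used (reads on the first strand made up 49.7 to 50.0% of stranded counts). Library sizes and tests exclude the 4 lines without a gene name. Of all reads, unmapped reads were 2.51 to 6.26%, multimapping reads 8.64 to 13.3%, reads outside genes 3.82 to 13.1% and ambiguous reads 3.61 to 4.21%. Of 48795 identifiers, 48349 matched the table of names and 48435 the GRCm38 annotation, both without version, which gave positions and exon lengths. Gene counts per library ran from 24140980 to 50464366. The upper limit for a gene without reads used 3 counts and covers counting error only.

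Low genes were removed with filterByExpr by age group (count of at least 10, total of at least 15) and tested with edgeR 4.0.16 (TMM scaling, robust quasi-likelihood, R 4.3.3) with sex as a covariate, and p-values were adjusted by Benjamini-Hochberg over all genes kept. The tests were the slope on age, the joint test of the ages, each age against 2 months, departure from a line, sex and sex by age. The alternatives were DESeq2 1.42.0, limma-voom 3.58.1, other scalings, no filter, other covariates, log2 age, and fits without each library, age or sex. Leaving out the 3 female 6-month libraries and taking sex by age as a factor were chosen after seeing the data. The scripts were tested on simulated data. CPM used TMM-scaled library sizes, and TPM the union of exons. Correlations used log2(CPM + 1) after the mean of each age and sex was taken off, with 100000 permutations within those groups. Replicate numbers follow accession order within an age.

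Genes named are the 10 members, the listed pathway genes whose slope or joint test passed, and for each member the 3 most alike by Pearson's r among genes with a mean of at least 10 CPM; other genes named (ligands, Smad4, Id2 and Id4) were chosen after their values were seen. The members and lists were chosen with earlier results of these data known. Python 3.11.15, pandas 2.3.3 and matplotlib 3.10.9 made the tables and plots.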

Additional observations from a re-analysis of the deposited data

How the results depend on the processing

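Of the 10 genes, 3 had an age slope that passed. That number was 0 with the share of reads outside genes as a covariate, 1 without the 2-month libraries, 1 without the 18-month libraries, 0 in males alone and 1 in females alone, and 2 to 3 in the fits without 1 library. With the longer-gene share as a covariate it stayed at 3, with Smad1 in place of Smad6. The joint test called 5, against 1 with reads outside genes (Bmpr2), 2 without 18 months and 0 in males. It called 9 in females (all but Smad6), 8 by DESeq2 and 4 to 7 without 1 library. Over all genes those fits called 6310, 6282 and 3910 to 5617. At 6 months 2 passed, against 1 with the longer-gene share as a covariate, 1 without 24 months, 0 in males, 5 in females, 0 without the 3 female 6-month libraries, 4 by DESeq2 and 0 to 4 without 1 library. At 12 months 0 passed, against 1 each with upper-quartile scaling, library totals, the longer-gene share, females alone and DESeq2, and 0 to 1 without 1 library. At 18 months 3 passed, against 1 with reads outside genes, 5 without 6 months, 1 in males, 7 in females, 5 without the 3 female 6-month libraries, 5 by DESeq2 and 2 to 4 without 1 library. At 24 months 2 passed, against 1 each with RLE scaling, no filter, no sex covariate and without 6 months, 0 with reads outside genes, 0 in males and 1 to 3 without 1 library. The cause of these changes was not tested.

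Over all genes, 1843 passed by slope, against 402 with reads outside genes, 940 without 2 months, 726 without 18 months, 193 in males, 623 in females and 1308 to 2021 without 1 library. The joint test passed for 4935, against 1431 with reads outside genes, 1937 without 18 months, 254 in males and 3910 to 5617 without 1 library. In females alone it passed for 6310 and by DESeq2 for 6282. At 6 months 1476 genes passed, against 967 without a filter, 862 with the longer-gene share, 957 without 24 months, 81 in males, 3754 in females, 205 without the 3 female 6-month libraries and 763 to 2181 without 1 library. At 12 months 495 passed, against 826 with the longer-gene share, 329 without 24 months, 63 in males, 264 in females and 902 by DESeq2. At 18 months 3163 passed, against 214 with reads outside genes, 275 in males and 2318 to 3313 without 1 library. The number was 3367 in females, 3620 without 6 months, 3707 without the 3 female 6-month libraries and 3805 by DESeq2. At 24 months 1406 passed, against 2204 with the longer-gene share, 253 in males and 1029 to 1497 without 1 library. Sex passed for 17 genes, against 51 by DESeq2.

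The slope of Acvrl1 changed sign to 0.0731 log2 with reads outside genes and 0.0053 log2 in males, and that of Id1 to 0.0630 log2 with reads outside genes and 0.0218 log2 with the longer-gene share. The slope of Tgfbr2 was 0.0523 log2 with library totals, 0.0163 with reads outside genes, 0.332 without 2 months, 0.0134 in females, 0.0156 by limma-voom and -0.0795 to 0.0546 without 1 library. Scaling by library totals gave a median slope over all genes of 0.09 log2, against 0.03 log2. Of the 30 most similar genes, 16 were also among the top 3 by Spearman's rho. No paired analysis was possible because the labels give no replicate numbers, and those used here follow accession order. Fits within 1 sex or without an age hold fewer libraries.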
